A study of Rattus norvegicus with 10 samples.

Results

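The complement genes examined here were C1qb, C1qc, C3, Cfd, Serping1 and Cd59b, measured in microglia, the resident macrophages of the brain, with and without interferon gamma (IFN-gamma). They comprised every probe set whose single gene symbol in the platform annotation was one of 7 named complement genes. That gave 10 of the 8740 probe sets tested, standing for 6 of 4736 genes. Cd59 is annotated under its current rat symbol Cd59b, of which Cd59 is a synonym in RefSeq, and Cfi, the gene of complement factor I, was not analysed here. C1qb had 2 probe sets, C1qc had 3 and C3 had 2, and the other genes had 1 each. Probe sets of 1 gene share a target, and those of C1qb and of C1qc each carry a single sequence record in their names, so they are not independent measurements.

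The treated group held 3 primary cultures of neonatal rat microglia given 100 U/ml IFN-gamma in fresh medium for 16 hours, and 1 of these (culture 1) was run on 3 technical arrays (1a, 1b and 1c), which were averaged. The control group held 5 independent cultures given fresh medium alone (cultures 1, 2, 3, 5 and 6). Both groups came from flasks that each held tissue of 1 brain, in medium containing 15% fetal calf serum, and were plated on day 15. The labels give no strain or sex, and do not say whether any treated culture came from the same brain as a control culture.

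Complement is a cascade of plasma and cell surface proteins that tags particles for uptake and can lyse membranes. C1q, built from the products of C1qa, C1qb and C1qc, binds its targets together with the proteases C1r and C1s and starts the classical pathway. C3 is the component on which all activation routes converge, and factor D (Cfd) is the protease of the alternative pathway. The C1 inhibitor encoded by Serping1 inactivates C1r and C1s, while CD59 sits on the cell surface and blocks assembly of the membrane attack complex at the end of the cascade. In brain, microglia are a main source of C1q, and C1q and C3 are known for tagging synapses for removal.

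RefSeq promoter sequences (assembly GRCr8, from 250 bases before to 50 after the annotated start) were matched by symbol for 3 of the 6 genes, C1qb, C3 and Cfd. Those of C1qb, which rose with IFN-gamma, and of C3, which did not pass the test, are shown 5′ to 3′ on the strand of the gene. The part of these sequences in either result was not tested. Both genes lie on the minus strand, C1qb at chr5:154407778-154408077 and C3 at chr9:2201290-2201589. Capitals mark the core motif of PU.1, a transcription factor of myeloid cells.
C1qb: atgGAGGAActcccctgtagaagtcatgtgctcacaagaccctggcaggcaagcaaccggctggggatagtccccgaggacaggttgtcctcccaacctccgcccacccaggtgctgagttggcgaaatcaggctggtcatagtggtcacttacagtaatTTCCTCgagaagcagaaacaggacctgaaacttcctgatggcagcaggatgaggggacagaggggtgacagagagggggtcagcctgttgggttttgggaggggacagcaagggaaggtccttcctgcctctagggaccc
C3: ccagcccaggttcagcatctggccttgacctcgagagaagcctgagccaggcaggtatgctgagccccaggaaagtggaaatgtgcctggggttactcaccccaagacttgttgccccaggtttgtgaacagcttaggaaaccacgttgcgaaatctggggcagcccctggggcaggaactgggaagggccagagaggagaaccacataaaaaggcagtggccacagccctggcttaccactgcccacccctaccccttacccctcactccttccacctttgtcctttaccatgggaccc
The motifs reported here, each searched on both strands, were the PU.1 core GAGGAA and GAAANNGAA, a core of the interferon-stimulated response element. The PU.1 core occurred at 2 positions in the C1qb promoter, starting at -90 and -247 from the annotated start, and the response element core did not occur there. Neither motif occurred in the C3 or Cfd promoter window. Among 33469 RefSeq promoters of the same length, 27.6% held the PU.1 core and 9.71% the response element core. A match is a description of letters, and a window without one says nothing about the factor. In the same gene table C1qb, C1qc and C1qa follow each other on chromosome 5 with no other gene listed between them, whereas Serping1 and Cd59b both lie on chromosome 3.

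Levels are quantile normalised log2(signal + 16) values, on which a signal of 0 lies at 4. Changes are differences on the same scale, which understates them for dim probe sets. The arrays as deposited were not on a common scale, with median signals from 11.1 to 23.7 on the IFN-gamma arrays and from 7.4 to 20.2 on the control arrays, of which control culture 3 was the dimmest. The transcription factor gene Irf1 and Cd74, the class II invariant chain gene, both established IFN-gamma targets, were 10.1-fold and 47.9-fold higher in the treated cultures (limma, adjusted p = 1.08e-05 and 5.51e-06), and for neither did the groups overlap. Of the microglial markers, Aif1 was well measured at 8.24 ± 0.23 with IFN-gamma (SD, n = 3) and 7.81 ± 0.53 in controls (SD, n = 5). Csf1r (4.88 and 4.73) and Cx3cr1 (4.91 and 5.19), by contrast, lay near the floor. Ptprc stood at 5.86 with IFN-gamma and 5.60 in controls, and Itgam at 5.77 and 4.98. Since these were whole cultures, a change in the share of a cell type and a change in RNA per cell cannot be told apart.

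Both measured C1q chains and the C1 inhibitor rose with IFN-gamma. C3 (1.59-fold higher) and the membrane inhibitor Cd59b (2.08-fold lower) did not pass the test, and Cfd overlapped between the groups. By brightest probe set, Serping1 was 3.75-fold higher in treated cultures, C1qc 2.48-fold and C1qb 2.21-fold. Of the 10 probe sets 4 were higher and 0 lower at an adjusted p under 0.05 by limma, where 0.927% of all probe sets were higher and 0.606% lower. At an unadjusted p under 0.05, 7 were higher and 1 lower, where 5.74% of all probe sets were higher and 4.76% lower. Counted as genes, 3 of 6 were higher (background 0.887%) and 0 of 6 lower (background 0.697%). All 3 treated cultures lay above all 5 controls in 7 of the 10 probe sets (4.28% of all probe sets) and below them in 1 (3.4%), and the groups overlapped in 2. The median log2 fold change was 0.84 over the 10 probe sets and -0.02 over all probe sets. The members were chosen with earlier results of these data known, so their shares beside those of all probe sets describe them and test nothing. The counts past the threshold also depended on single cultures and on the scaling. Omitting IFN-gamma culture 2 or 3, or control culture 2 or 6, left 1 probe set higher in place of 4. Omitting culture 1 of either group left 2, and Serping1 passed each time. With no scaling between arrays, where 97.4% of all calls were higher against 60.4% here and the median over all probe sets was 0.10, Serping1 was again the 1 that passed.

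**Figure D1:**
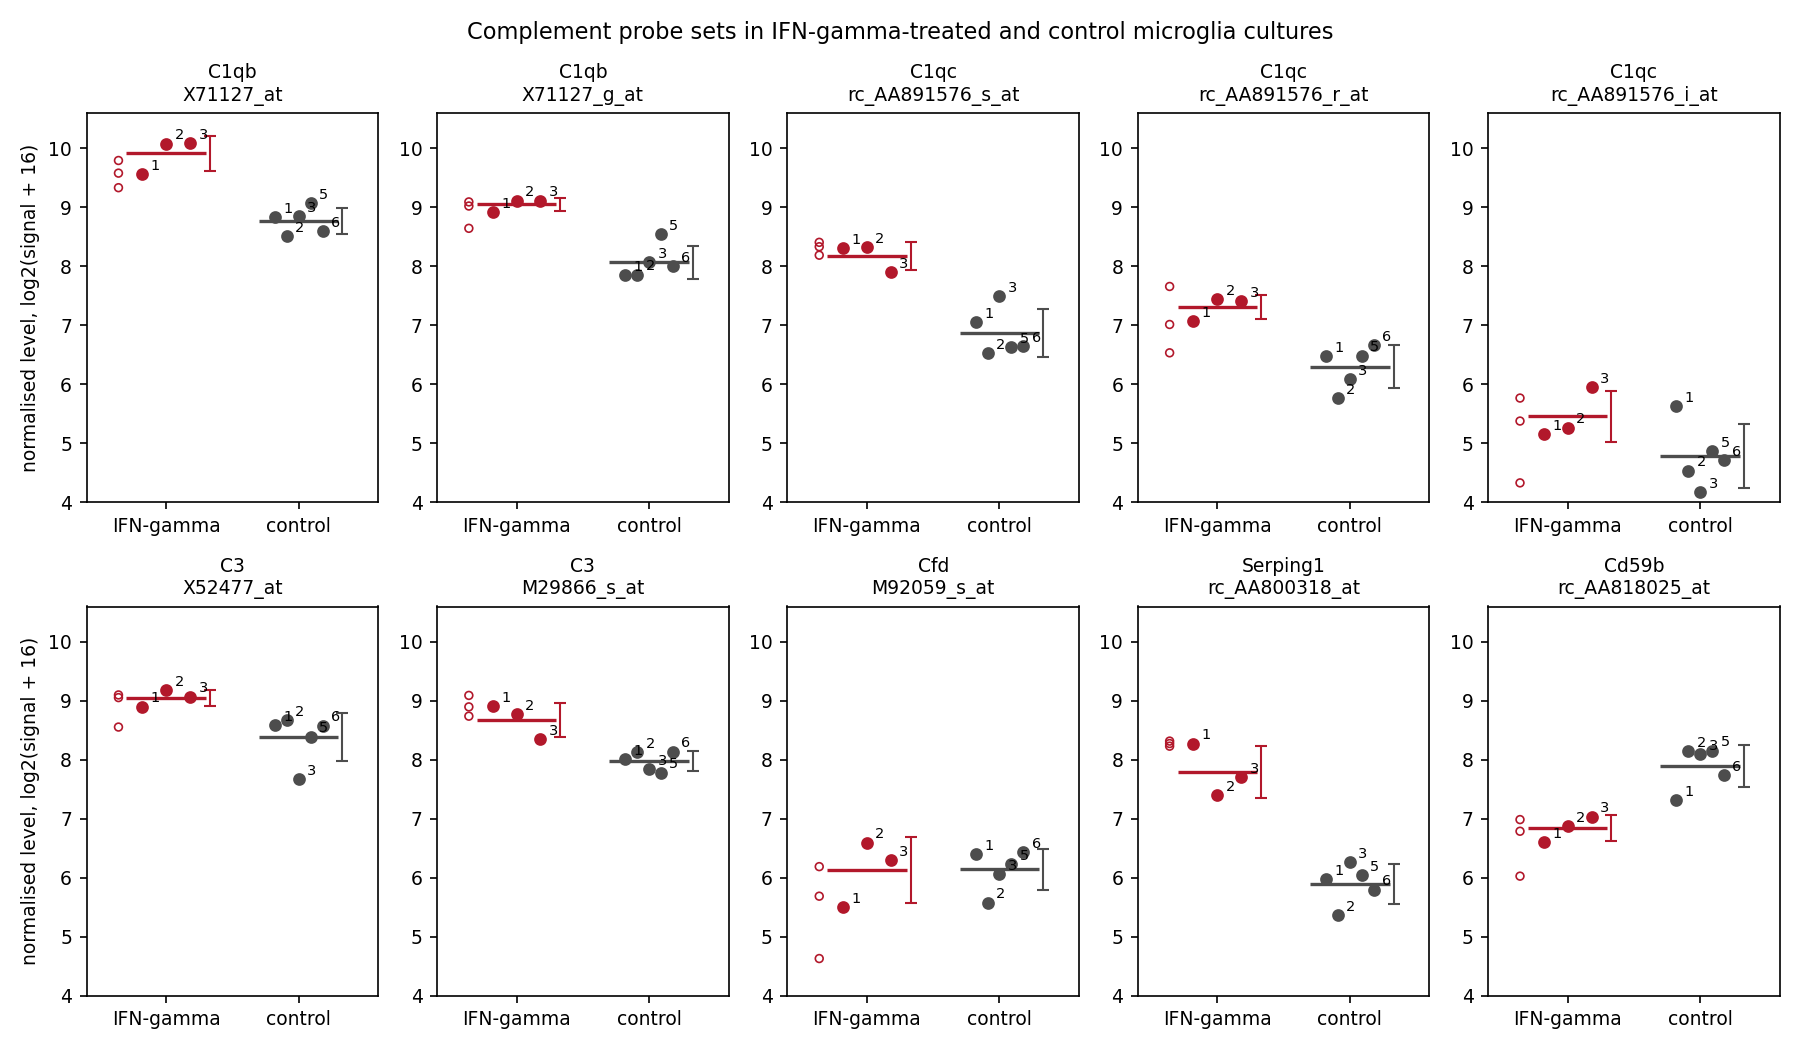
Normalised log2(signal + 16) levels (vertical axes) of the 10 complement probe sets in 3 IFN-gamma (left, red) and 5 control (right, grey) cultures, with culture numbers; lines are means, bars are SD and open circles are the technical arrays of IFN-gamma culture 1. The treated cultures lie above every control for both C1qb probe sets, 2 of 3 for C1qc, both for C3 and Serping1, and below every control for Cd59b.

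C1qb encodes the B chain of C1q. Its brighter probe set (X71127_at) stood at 9.57, 10.08 and 10.10 in IFN-gamma cultures 1, 2 and 3, and at 8.83, 8.51, 8.85, 9.07 and 8.60 in control cultures 1, 2, 3, 5 and 6. The lowest treated culture exceeded the highest control by less than the range within the controls. The mean was 9.92 ± 0.30 (SD, n = 3) with IFN-gamma and 8.77 ± 0.22 (SD, n = 5) in controls, giving a log2 fold change of 1.14, with an SE of 0.20 and an adjusted p of 0.0239, the 106th highest of 8740. The second probe set (X71127_g_at) stood at 8.92, 9.11 and 9.11 with IFN-gamma and between 7.86 and 8.54 in controls, again without overlap. Its log2 fold change of 0.98 also passed (adjusted p = 0.0453). It missed the threshold in 13 of 21 alternative settings and the brighter probe set in 8 of 22, with both estimates positive throughout. The estimate for the brighter probe set grew to 1.79 with array medians subtracted (adjusted p = 0.0331) and was 1.91 with no scaling (adjusted p = 0.434). Leaving out IFN-gamma culture 2 or 3 gave an adjusted p of 0.152 or 0.145, leaving out control culture 2 or 6 gave 0.0557 or 0.0675, and with array 1c alone for IFN-gamma culture 1 it was 0.0716.

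C1qc, which encodes the C chain, also rose by its brightest probe set (rc_AA891576_s_at). The level was 8.31, 8.32 and 7.91 in the 3 IFN-gamma cultures, against 7.05, 6.53, 7.49, 6.63 and 6.65 in the controls. Control culture 3, the dimmest array, was the highest control and IFN-gamma culture 3 the lowest treated culture, and the groups were still separate. The mean was 8.18 ± 0.24 (SD, n = 3) with IFN-gamma and 6.87 ± 0.40 (SD, n = 5) in controls, a difference of 1.31 (SE 0.25, adjusted p = 0.0364) and the 77th highest. It missed the threshold in 10 of 21 alternative settings. Leaving out IFN-gamma culture 1, 2 or 3 gave an adjusted p of 0.169, 0.203 or 0.0934. Leaving out control culture 1, 2, 5 or 6 gave 0.0507, 0.0777, 0.0918 or 0.0955, and leaving out control culture 3 gave 0.00732. Every C1qc probe set, like X71127_g_at of C1qb, was classed here, by the ending of its name, as of reduced specificity. C1qc therefore has no value in the setting without such probe sets.

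The other C1qc probe sets were dimmer and gave smaller estimates. The probe set rc_AA891576_r_at had 7.07, 7.45 and 7.41 with IFN-gamma and 5.77 to 6.66 in controls, so the groups did not overlap, and its log2 fold change of 1.01 did not pass (95% interval 0.49 to 1.53, adjusted p = 0.0819). The probe set rc_AA891576_i_at had 5.16, 5.26 and 5.95 with IFN-gamma and 4.17 to 5.63 in controls. Here the groups overlapped (log2 fold change 0.67, 95% interval -0.06 to 1.41, adjusted p = 0.524). For both, the 3 technical arrays of IFN-gamma culture 1 varied more than the 3 treated cultures did. Their SD was 0.56 for rc_AA891576_r_at and 0.74 for rc_AA891576_i_at, against 0.21 and 0.43 between IFN-gamma cultures. The technical SD was also the larger for X71127_g_at of C1qb (0.24 against 0.11), X52477_at of C3 (0.30 against 0.14), Cfd (0.80 against 0.57) and Cd59b. It was the smaller for X71127_at of C1qb, M29866_s_at of C3, Serping1 and the brightest C1qc probe set, where it was 0.11. Taking each gene by the median of its probe sets, C1qb (log2 fold change 1.06, adjusted p = 0.0195) and Serping1 passed and C1qc did not (1.01, adjusted p = 0.0653).

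C3, the central component, was higher in every treated culture than in any control by both of its probe sets but did not pass. By the brighter one (X52477_at) it stood at 8.90, 9.18 and 9.07 in IFN-gamma cultures and at 8.60, 8.68, 7.68, 8.39 and 8.58 in controls. The log2 fold change was 0.67 (95% interval 0.12 to 1.21, adjusted p = 0.338). Control culture 3 lay well below the other controls there, and without it the log2 fold change was 0.49 (adjusted p = 0.248). By the other probe set (M29866_s_at) the treated cultures had 8.91, 8.77 and 8.34 and the controls 7.78 to 8.14, with control culture 3 inside that range. Its log2 fold change of 0.69 (95% interval 0.28 to 1.11, adjusted p = 0.146) was close to that of the first. With array medians subtracted the estimates were 1.22 and 1.24, and neither probe set passed in any of 22 and 21 alternative settings.

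Cfd, the factor D gene, overlapped fully between the groups. It stood at 5.50, 6.60 and 6.30 in IFN-gamma cultures 1, 2 and 3 and at 6.41, 5.58, 6.07, 6.23 and 6.44 in the controls. The lowest of the 8 values was IFN-gamma culture 1, whose technical arrays themselves ranged from 4.63 to 6.19, and the highest was IFN-gamma culture 2. The log2 fold change was -0.01 with a 95% interval of -0.66 to 0.64 (adjusted p = 0.998). The estimate was above 0 in 10 of 21 alternative settings.

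The estimates of the inhibitors had opposite signs, and only that of Serping1 passed the test. Serping1 (rc_AA800318_at) stood at 8.27, 7.40 and 7.71 in the 3 IFN-gamma cultures and at 5.98, 5.36, 6.26, 6.05 and 5.80 in the controls. The gap between the lowest treated culture and the highest control was wider than the whole range of the controls. Its mean was 7.79 ± 0.44 (SD, n = 3) with IFN-gamma and 5.89 ± 0.34 (SD, n = 5) in controls, and the log2 fold change of 1.91 (SE 0.26, adjusted p = 0.00557) ranked 33rd from the top. Before any scaling the deposited signal was 210.1, 663.8, 182.9, 197.6 and 322.9 on IFN-gamma arrays 1a, 1b, 1c, 2 and 3, against 61.7, 18.4, 26.3, 57.7 and 48.3 on the control arrays, so the groups were separate in the raw signal as well. After normalisation the arrays 1a, 1b and 1c had an SD of 0.04. The spread between treated cultures was larger, with culture 1 highest. It passed in 21 of 22 alternative settings, over all of which the log2 fold change ran from 1.66 to 2.34.

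Cd59b (rc_AA818025_at) was lower in each treated culture than in any control. It stood at 6.60, 6.88 and 7.04 in IFN-gamma cultures 1, 2 and 3 and at 7.32, 8.15, 8.09, 8.16 and 7.75 in control cultures 1, 2, 3, 5 and 6. Control culture 1 was the closest to the treated cultures. The technical arrays of IFN-gamma culture 1 ran from 6.03 to 6.99, with an SD of 0.51 against 0.22 between IFN-gamma cultures. The mean was 6.84 ± 0.22 (SD, n = 3) with IFN-gamma and 7.89 ± 0.36 (SD, n = 5) in controls. The log2 fold change of -1.06 (95% interval -1.58 to -0.53, adjusted p = 0.0708) ranked 67th from the bottom but did not pass. It did pass without control culture 1 (-1.20, adjusted p = 0.0209), with an intensity trend in the variance model (adjusted p = 0.0351) and with all 10 arrays fitted with culture as a random effect (-1.12, adjusted p = 0.049). The size depended on the scaling, at -0.59 with array medians subtracted (adjusted p = 0.553) and -0.47 with no scaling (adjusted p = 0.907). In the raw signal the groups overlapped, with 77.9, 184.9, 35.5, 124.6 and 186.2 on IFN-gamma arrays 1a, 1b, 1c, 2 and 3 and 228.8, 161.5, 74.9, 256.1 and 249.2 on the control arrays.

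To compare initiation with inhibition, the level of each C1q chain was subtracted from that of each inhibitor within every culture, by brightest probe set, and the 4 differences were tested between groups by an exact two-sided permutation test. Only the change of such a difference between groups can be read, since levels of different probe sets are not on a common scale. The difference of Cd59b from either C1q chain was lower with IFN-gamma. That shift combines the log2 fold change of Cd59b (-1.06, not past the threshold by limma) with the rise of C1qb (1.14) or C1qc (1.31). The pairs share genes, so the 4 tests are not independent of each other. Cd59b minus C1qb was -2.97, -3.21 and -3.06 in IFN-gamma cultures 1, 2 and 3 and -1.51, -0.36, -0.76, -0.92 and -0.85 in the controls. The shift was -2.20 on the log2 scale, or 4.59-fold (exact permutation p = 0.0179, the smallest possible, adjusted p = 0.0357 over the 4 pairs). Cd59b minus C1qc was -1.71, -1.45 and -0.87 with IFN-gamma and between 0.27 and 1.63 in controls, a shift of -2.37 or 5.16-fold (exact permutation p = 0.0179, adjusted p = 0.0357). Neither pair overlapped between the groups. That followed from the single genes, since every treated culture was above all controls for both C1q chains and below them for Cd59b. The permutation p of the Cd59b pairs was thereby bound to lie at or next to its smallest value. It restates the separation of the single genes and is no further evidence. With 1 culture left out fewer placements exist, and the adjusted p of these pairs ran from 0.0381 to 0.0952. Over the 17 alternative settings the shifts stayed between -2.38 and -2.07 for C1qb and between -2.62 and -2.16 for C1qc. A difference within an array cancels an offset of that array. The settings with no scaling and with array medians subtracted therefore had to give equal shifts (-2.38 for C1qb, -2.36 for C1qc).

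Relative to C1qb, Serping1 was higher with IFN-gamma by a margin close to the threshold, and the difference from C1qc did not pass. Serping1 minus C1qb was -1.29, -2.68 and -2.38 in IFN-gamma cultures 1, 2 and 3 and -2.85, -3.15, -2.59, -3.02 and -2.80 in the controls. The groups overlapped, since IFN-gamma culture 2 lay below control culture 3. The shift was 0.76, or 1.70-fold (exact permutation p = 0.0357, adjusted p = 0.0476). It was 0.35 without IFN-gamma culture 1 (adjusted p = 0.19) and 0.44 with array medians subtracted or with no scaling (adjusted p = 0.393 in both). This shift missed the threshold in 11 of 17 alternative settings. Serping1 minus C1qc was -0.03, -0.93 and -0.20 with IFN-gamma and between -1.23 and -0.58 in controls, a shift of 0.59 that did not pass (exact permutation p = 0.0714, adjusted p = 0.0714).

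**Figure D2:**
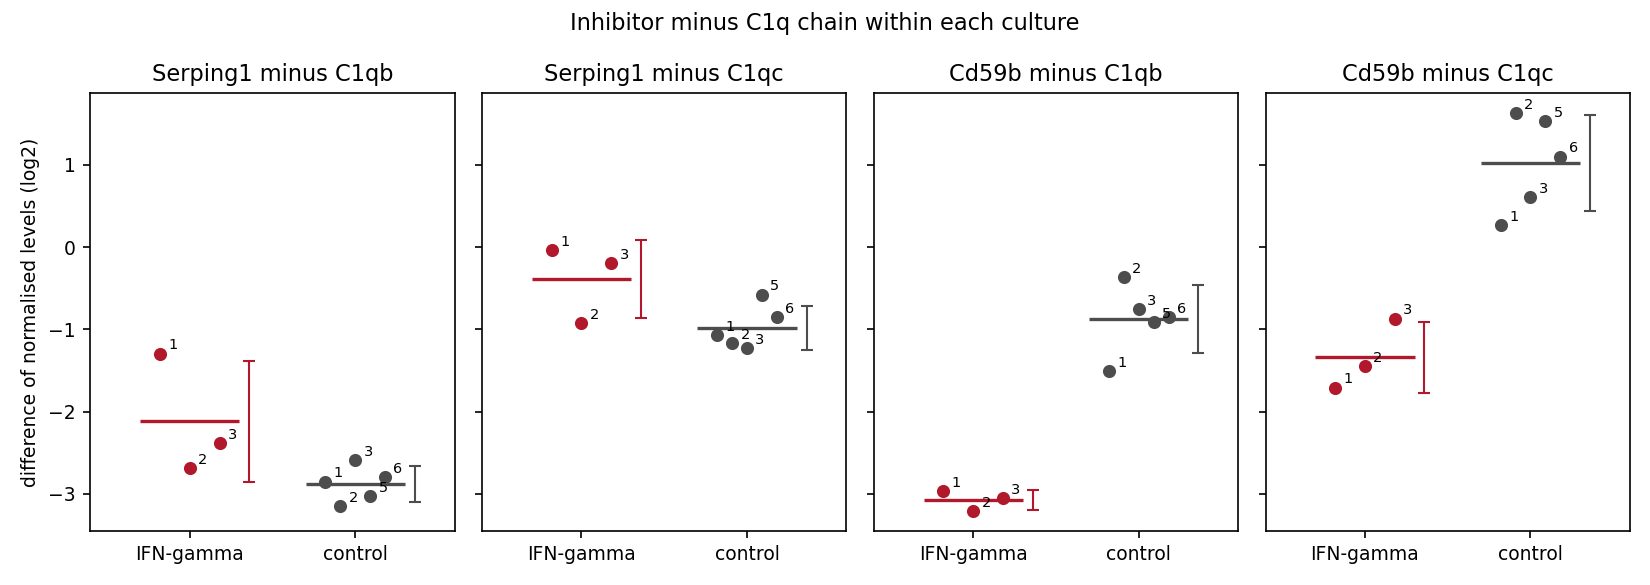
Inhibitor minus C1q chain (difference of normalised log2 levels, vertical axis) in each of 3 IFN-gamma (left, red) and 5 control (right, grey) cultures; numbers are cultures, lines are means and bars are SD. Both Cd59b panels show treated cultures entirely below the controls, with mean differences of -2.20 and -2.37, and in both Serping1 panels IFN-gamma culture 2 lies among the controls.

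Of 49 symbols on a list of complement genes sorted by role, 25 had a probe set. Among the C1 complex genes 2 of 4 measured rose and 0 fell, where 0.887% of all genes were higher and 0.697% lower. Both were C1q chains, already counted among the 6 genes described above. The protease gene C1s stood near the floor at 4.66 with IFN-gamma and 4.54 in controls (log2 fold change 0.12, adjusted p = 0.96). Of 10 inhibitors and regulators 1 rose (Serping1) and 0 fell, with 3 higher and 1 lower (Cd59b) at an unadjusted p under 0.05. Of 8 central and other components and of 3 receptors 0 passed by limma in either direction, with 1 higher in each at an unadjusted p under 0.05 (C3 and Itgam). Outside the 6 genes described above, 0 of 19 genes passed by limma, with 3 higher and 0 lower at an unadjusted p under 0.05 (5.85% and 5.26% of all genes), and their log2 fold changes ran from -0.50 to 1.20 with a median of -0.02. The anaphylatoxin receptor genes C3ar1 and C5ar1 had log2 fold changes of 0.01 (adjusted p = 0.995) and -0.45 (adjusted p = 0.54). Itgam, a chain of complement receptor 3 (CD11b), had 0.79 (adjusted p = 0.0951), and all treated cultures were above the controls. C1qbp, named after its values were seen, had the highest estimate of the 19 (1.20, adjusted p = 0.35), and its product is a mainly mitochondrial protein that also binds C1q.

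**Figure D3:**
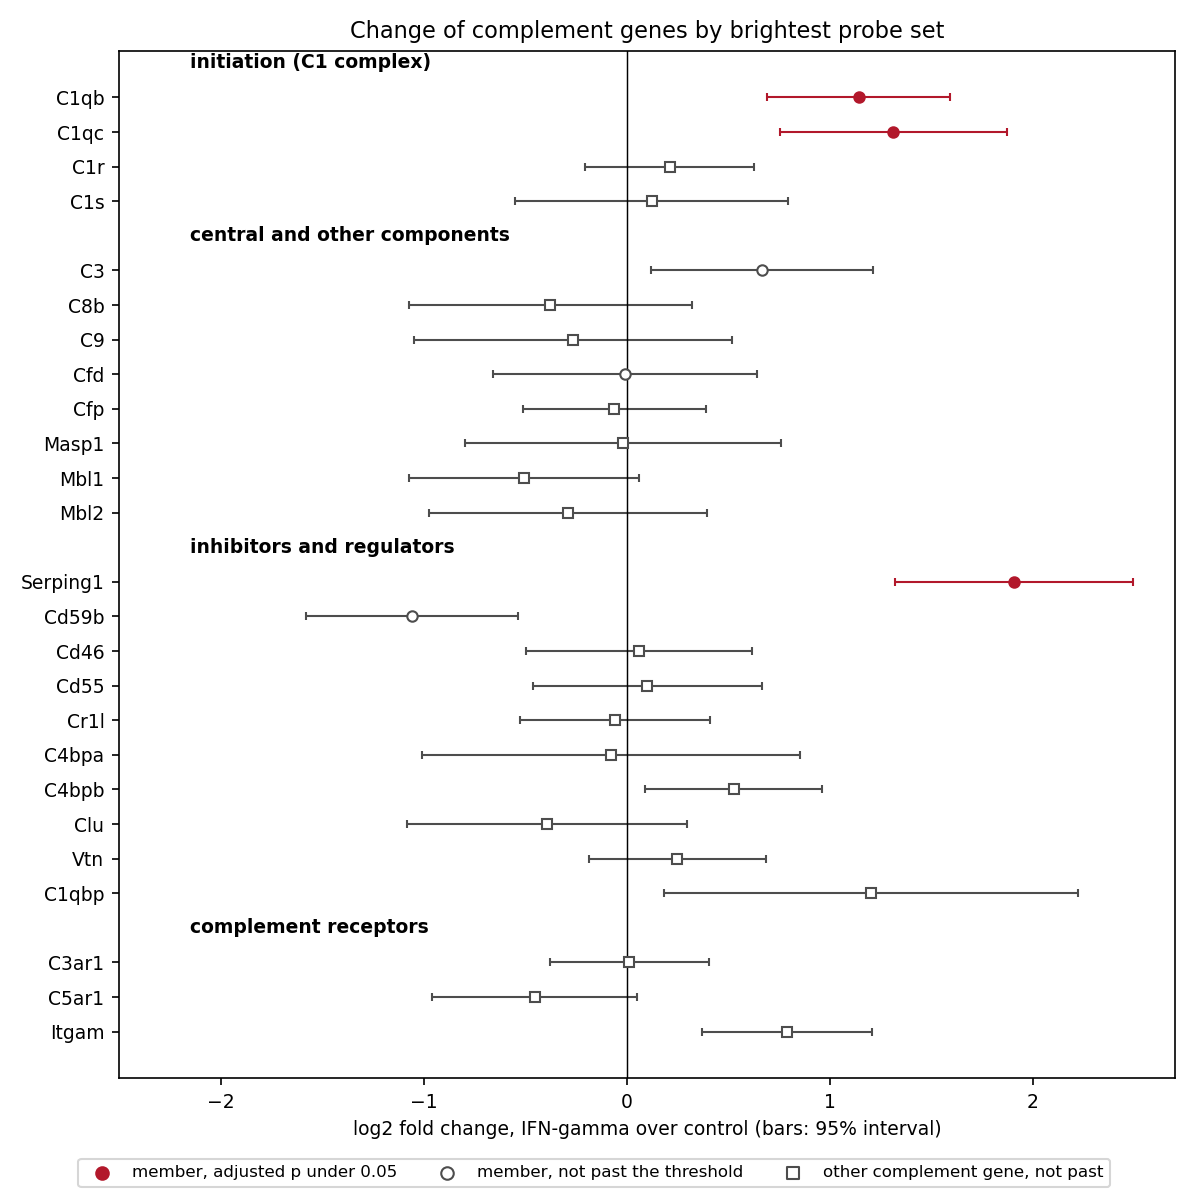
Log2 fold change, IFN-gamma over control, with its 95% interval (horizontal axis) for the 25 measured complement genes by brightest probe set, grouped by role; circles are the 6 genes of the report, squares the other 19, and filled symbols passed an adjusted p of 0.05. Only C1qb, C1qc and Serping1 are filled, and Cd59b is the estimate furthest to the left.

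For each gene that rose, the genes with the most similar response were found as those with the smallest root mean square difference over the 8 cultures between profiles centred on the control mean. Nearest to C1qb were Gda (guanine deaminase, difference 0.20, log2 fold change 0.97), Triobp (0.21, log2 fold change 0.89) and the class I gene RT1-CE16 (0.24, log2 fold change 1.26). The probe sets of RT1-CE16 (M11071_f_at) and Gda (rc_AA859837_g_at) were among those classed here, by the ending of their names, as of reduced specificity. Nearest to C1qc were Creg1 (0.20, log2 fold change 1.15), Bst1 (0.22, log2 fold change 1.48) and Lgals3bp (0.30, log2 fold change 1.05). Serping1 had no profile as close. Its nearest were Tspo, the mitochondrial translocator protein gene used as a marker of activated microglia (0.34, log2 fold change 1.42), Taldo1 (0.35, log2 fold change 1.79) and the costimulatory receptor gene Cd40 (0.35, log2 fold change 1.49). Of these 9 genes, Triobp (adjusted p = 0.127) and Lgals3bp (adjusted p = 0.0814) did not themselves pass the test, and neither C1q chain was among the 3 nearest of the other.

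Lists of marker genes for other brain cell types, some of which can make complement proteins, were measured beside the microglial list. The mean level of 7 measured astrocyte genes was 5.19 to 5.39 in IFN-gamma cultures and 5.33 to 5.83 in controls, and 1 of them was lower with IFN-gamma, the glutamine synthetase gene Glul (7.42 with IFN-gamma and 9.08 in controls, log2 fold change -1.66, adjusted p = 0.00301). Of the other astrocyte genes, the glutamate transporter gene Slc1a3 had 6.04 with IFN-gamma and 6.17 in controls, and Slc1a2 had 5.22 and 5.40. Aldh1l1 (4.60 and 4.75), Aqp4 (4.67 and 4.84), S100b (4.69 and 4.84) and Gja1 (4.24 and 4.11) lay nearer the floor in both groups. For 7 fibroblast and meningeal genes the mean level was 4.93 to 5.16 with IFN-gamma and 5.15 to 5.41 in controls. It was 4.83 to 5.13 and 4.96 to 5.65 for 7 oligodendrocyte genes, 4.67 to 4.97 and 4.77 to 5.12 for 7 neuronal genes, and 5.15 to 5.50 and 5.08 to 5.63 for 3 endothelial genes. For 5 microglial genes it was 5.71 to 6.13 with IFN-gamma and 5.35 to 5.83 in controls. By brightest probe set 0 genes of these 5 lists passed by limma. At an unadjusted p under 0.05, 1 microglial gene (Itgam) was higher and 3 oligodendrocyte and 3 fibroblast genes were lower. At that threshold 5.85% of all genes were higher and 5.26% lower. A dimmer probe set of the collagen gene Col1a1 (M27207mRNA_s_at) was lower with IFN-gamma (log2 fold change -1.20, adjusted p = 0.0239). The part of such cells in the Serping1, C1q and Cd59b values was not tested.

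**Figure D4:**
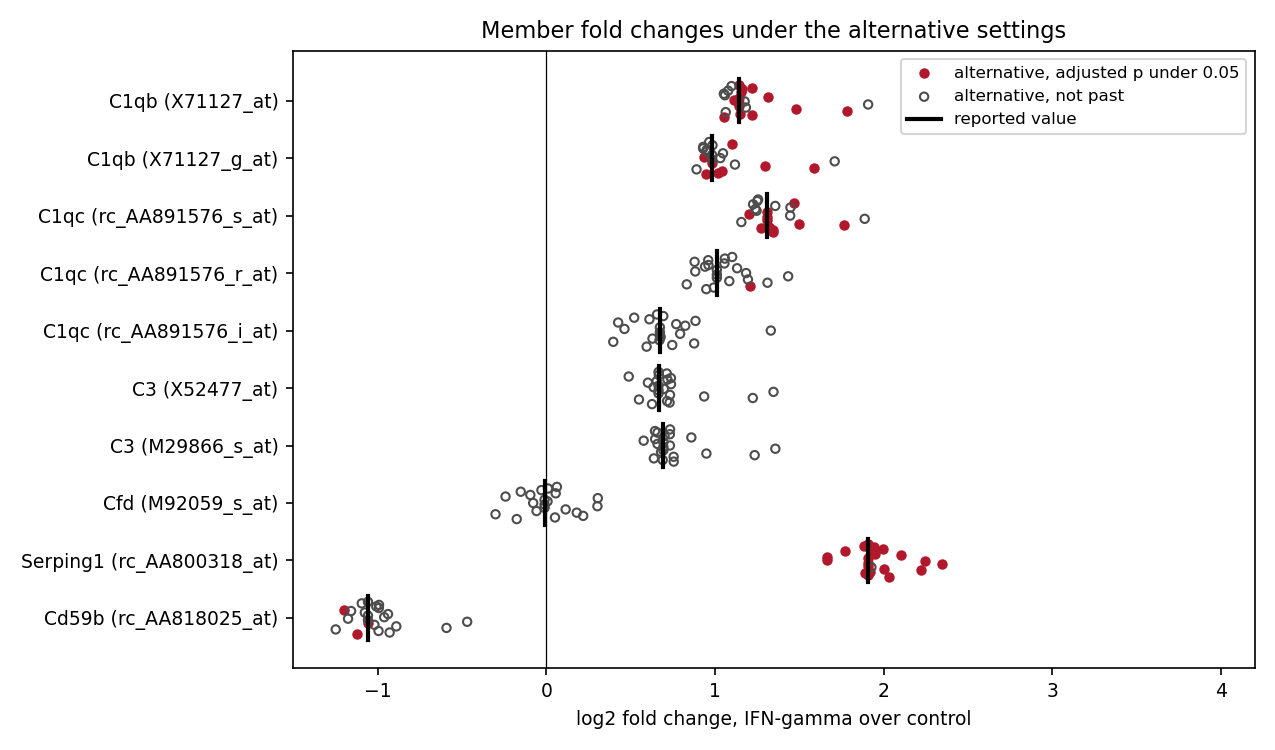
Log2 fold change, IFN-gamma over control (horizontal axis), of the 10 complement probe sets as reported (black line) and under 21 or 22 alternative settings (points, filled where the adjusted p was under 0.05). Serping1 passed in 21 of 22 alternatives, the brighter C1qb probe set in 14 of 22, and Cfd lies on both sides of 0.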

How the data were processed

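Total RNA of each culture was labelled with biotin and hybridised to a rat expression array. The authors deposited linear signal intensity values, 1 for each probe set on each array. MAS5 and GCRMA appear in the submitters' processing notes without version or role, and the one that produced these intensities is not stated in what was used here. Precision is limited by how few arrays there are.

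Of 8799 probe sets 59 array controls were left out. Symbols came from the platform annotation (7006 of the remaining probe sets with 1, 308 with several, 1426 with none), and 6985 had an Entrez identifier in the RefSeq table of GRCr8. Intensities were transformed to log2(signal + 16), quantile normalised over 10 arrays and averaged over the technical arrays, because the deposited signals were not on a common scale. Groups (3 against 5 cultures, no other term) were compared two-sided in R 4.3.3 by limma 3.58.1 with moderated variances. P-values were adjusted by Benjamini-Hochberg across 8740 probe sets, and the threshold was 0.05. The step was tested on simulated data. A gene was represented by its probe set with the highest mean over the 8 cultures. Inhibitor minus C1q differences were tested by exact permutation, two-sided, using all 56 ways of placing 3 of 8 cultures (smallest p 0.0179), and adjusted over 4 pairs. The design had 6 pairs, of which those with Cfi fell away. P-values measure the spread between cultures with array noise included, because every culture but IFN-gamma culture 1 was run on a single array.

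Named were all members, the check genes Irf1 and Cd74, the 3 nearest genes of each member past the threshold, fixed complement and cell type lists with their counts, and C1s, C3ar1, C5ar1 and Itgam from a fixed set. The members and lists were chosen with earlier results of these data known. The alternatives covered scaling, pseudocount, filters, technical arrays, variance model, pairing and the omission of each culture. The labels do not say that a culture number marks a shared brain, and no block was used in the fit described. Same-numbered treated and control cultures did not deviate together from their group means. Their correlation over probe sets was -0.03, 0.00 and -0.01 for numbers 1, 2 and 3. With so few cultures in each group, these correlations cannot show that no pairing exists. A further promoter motif is not reported here.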

Additional observations from a re-analysis of the deposited data

Results flagged for a closer look

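The brighter C3 probe set (X52477_at) had 1 control culture far from the others. Control culture 3 stood at 7.68 while the other controls lay between 8.39 and 8.68, a gap of 0.715 of the whole range of the controls, and above the limit of 0.71 that chance passes in about 1 in 20 groups. It was the only such value among 14 examined (10 probe sets and 4 differences). The other C3 probe set did not show it, with 7.84 in control culture 3 inside the range of the controls. Control culture 3 was also the dimmest array.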

How the results depend on the processing

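In every alternative C1qb, C1qc, C3 and Serping1 kept a positive and Cd59b a negative log2 fold change. Against 4 member probe sets higher in the fit described, there were 1 with no scaling and 1 with a pseudocount of 1, 2 without probe sets of reduced specificity, 2 with array 1c alone for IFN-gamma culture 1 and 0 with culture number as a replicate block. Leaving out each culture in turn gave 1 to 3. Member genes higher were 1 with no scaling, 1 with a pseudocount of 1, 0 with the replicate block, and 1 to 3 with a culture left out, against 3. Member probe sets lower were 1 with culture as a random effect, 1 with an intensity trend, and 0 to 1 with a culture left out, against 0. All probe sets past the threshold were 39 with no scaling, 67 with a pseudocount of 1, 59 without probe sets of reduced specificity, 22 with the replicate block and 68 to 154 with a culture left out, against 134. Some alternatives hold fewer probe sets or fewer cultures by construction, and for the others the cause was not tested. The block left 3 pairs of cultures to estimate the change, and Serping1 (1.93, adjusted p = 0.0908) lost its call there alone. Cfd changed sign with no scaling (0.30), array medians subtracted (0.18), a pseudocount of 32 (0.0077), array 1a (0.052) or 1b alone (0.22) and the replicate block (0.11), and ran from -0.24 to 0.31 with a culture left out.

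Serping1 minus C1qb was no longer past the threshold with no scaling (0.44), array medians subtracted (0.44), the trimmed mean (0.52), a pseudocount of 32 (0.55) or the replicate block (0.74), and ranged from 0.35 to 1.04 with a culture left out. Serping1 minus C1qc ranged from 0.42 to 0.86 and passed once, without IFN-gamma culture 2 (adjusted p = 0.0476). Cd59b minus C1qb was -2.20 with the replicate block and -2.36 to -2.07 with a culture left out. Cd59b minus C1qc was -2.18 with the block and -2.60 to -2.19 with a culture left out. With a culture left out or paired, so few placements exist that these p-values say little. Levels near 4, as for C1s, leave no room for a fall to be seen.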
